A study of Mus musculus with 19 samples.

Results

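Polyamine synthesis and turnover was described through 10 genes, *Odc1*, *Amd1*, *Srm*, *Sms*, *Sat1*, *Smox*, *Paox*, *Azin1*, *Oaz1* and *Oaz2*, out of the 23284 gene rows of each deposited matrix. The genes were taken by name, and all 10 had a row in both matrices, with *Oaz2* listed under its synonym *Oaz2-ps*. RNA-seq had been performed on 6 MEF samples, 6 prostate samples and 7 grafts, of which 5 are in the first matrix and FS022 and FS023 in a second matrix that was normalized separately. The MEFs (mouse embryonic fibroblasts) came from embryos at E13.5 that carried a lacZ reporter allele, with male and female littermates pooled and blood, endothelial and epithelial cells sorted away. The prostate samples were whole prostates of wild-type C57BL/6 mice at 6 weeks of age. The grafts were grown for 6 weeks under the kidney capsule of male nude mice carrying testosterone pellets, from iEpt cells mixed with rat urogenital mesenchyme. iEpt cells are MEFs given the human OSKM factors by retrovirus and kept in basal epithelial medium, and iEpt+NAF cells also received lentiviral transcription factor genes, mouse Foxa1 among them. The study names the 5 grafts of the first matrix as iEpt+NAF. The study also sequenced grafts of iEpt cells alone, without those lentiviral genes, and by elimination FS022 and FS023 would be these. The labels of FS022 and FS023 do not themselves say which kind they are, so they are given only as values and not as further iEpt+NAF grafts.

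Polyamines are small cations that bind nucleic acids and are needed for growth, and the prostate is known for secreting spermine into the seminal fluid. Ornithine decarboxylase makes putrescine, which spermidine synthase and spermine synthase extend with aminopropyl groups donated by decarboxylated S-adenosylmethionine. Acetylation and oxidation return spermine and spermidine to shorter amines or let them leave the cell. Antizymes, whose own translation needs a polyamine-dependent frameshift, bind ornithine decarboxylase and send it to the proteasome, and the antizyme inhibitor, a catalytically inactive relative of the enzyme, takes the antizyme away from it.

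The deposited values are DESeq-normalized and on a log2 scale, on which a difference of 1 is close to a doubling at high levels. The reads counted on genes were estimated as 16759754 to 26141028 per sample in the first matrix and 6627078 and 9658604 in FS022 and FS023. A floor was set at the value that 3 reads give, which was 1.68 to 2.34 in the first matrix, 3.12 in FS022 and 2.70 in FS023 and covers counting error only. Marker lists showed how far the samples matched their labels. Summed linear values of 5 prostate secretory markers ran from 1426780 to 2838710 in prostate, from 920 to 5091 in the 5 grafts and from 153 to 4048 in MEFs, and *Pbsn*, the androgen-dependent secretory gene probasin, was at 6.59 to 8.55 in MEF samples FS015 to FS018 but at 0.02 and 0.35 in FS019 and FS020. Immune markers summed to 2112 and 1913 in MEF samples FS015 and FS020 and to 41.4 to 96.3 in the other 4, although CD45 cells had been sorted away. The 6 MEF samples formed 3 close pairs (FS015 with FS020, FS016 with FS019, FS017 with FS018), with an SD of the log2 differences of 0.08 to 0.11 within pairs and 0.39 to 0.47 between them. They were counted as the 6 samples that the labels list. Reads within each pair differed by more than sampling noise, as repeat libraries of a single culture could too. Nothing in the labels names separate cultures, so p-values measure only the spread between these samples. Kidney markers were above the floor in every graft (at least 9 of 10 markers), with summed linear values of 1630 to 179106 against 21.9 to 122 in prostate and 323 to 445 in MEFs. In bulk tissue, fewer cells of a type and less RNA per cell cannot be told apart.

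Of the 10 genes, 8 were measured well enough to test, and they differed by modest amounts. A gene passed with an adjusted p-value under 0.05 (limma, Benjamini-Hochberg over all genes tested) and a log2 difference of at least 1. In prostate against MEFs 1 of the 8 passed, *Sms*, which was higher in prostate, where 48.3% of the 14560 genes tested passed in either direction (27.8% higher in prostate). In grafts against MEFs 2 of the 8 passed, *Smox* and *Paox*, both higher in grafts, against 41.9% of 16121 genes (29.9% higher in grafts). In prostate against grafts 2 of the 8 passed, *Srm* higher and *Smox* lower in prostate, against 33.3% of 16353 genes (10.3% higher and 23.0% lower in prostate). Without the minimum difference, the adjusted p-value was under 0.05 for 5, 6 and 4 of the 8, where the share over all genes was 80.9%, 65.6% and 55.6%. With the 3 close pairs of MEF samples averaged, the 6 in grafts against MEFs became 3 (*Srm*, *Smox* and *Paox*). *Odc1*, *Sms* and *Sat1* were then no longer under 0.05 in that comparison. The 5 in prostate against MEFs stayed 5. The 3 comparisons share their samples in pairs, so their counts are not independent. The median difference over the 8 genes was 0.51, 0.81 and -0.10, beside 0.17, 0.26 and -0.11 over all genes tested. Quantile normalization moved the latter to 0.01, -0.14 and 0.12. The share of passing genes that were higher in the first group moved with it, from 57.6% to 49.7% in prostate against MEFs, from 71.3% to 45.4% in grafts against MEFs and from 30.9% to 53.9% in prostate against grafts.

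**Figure D1:**
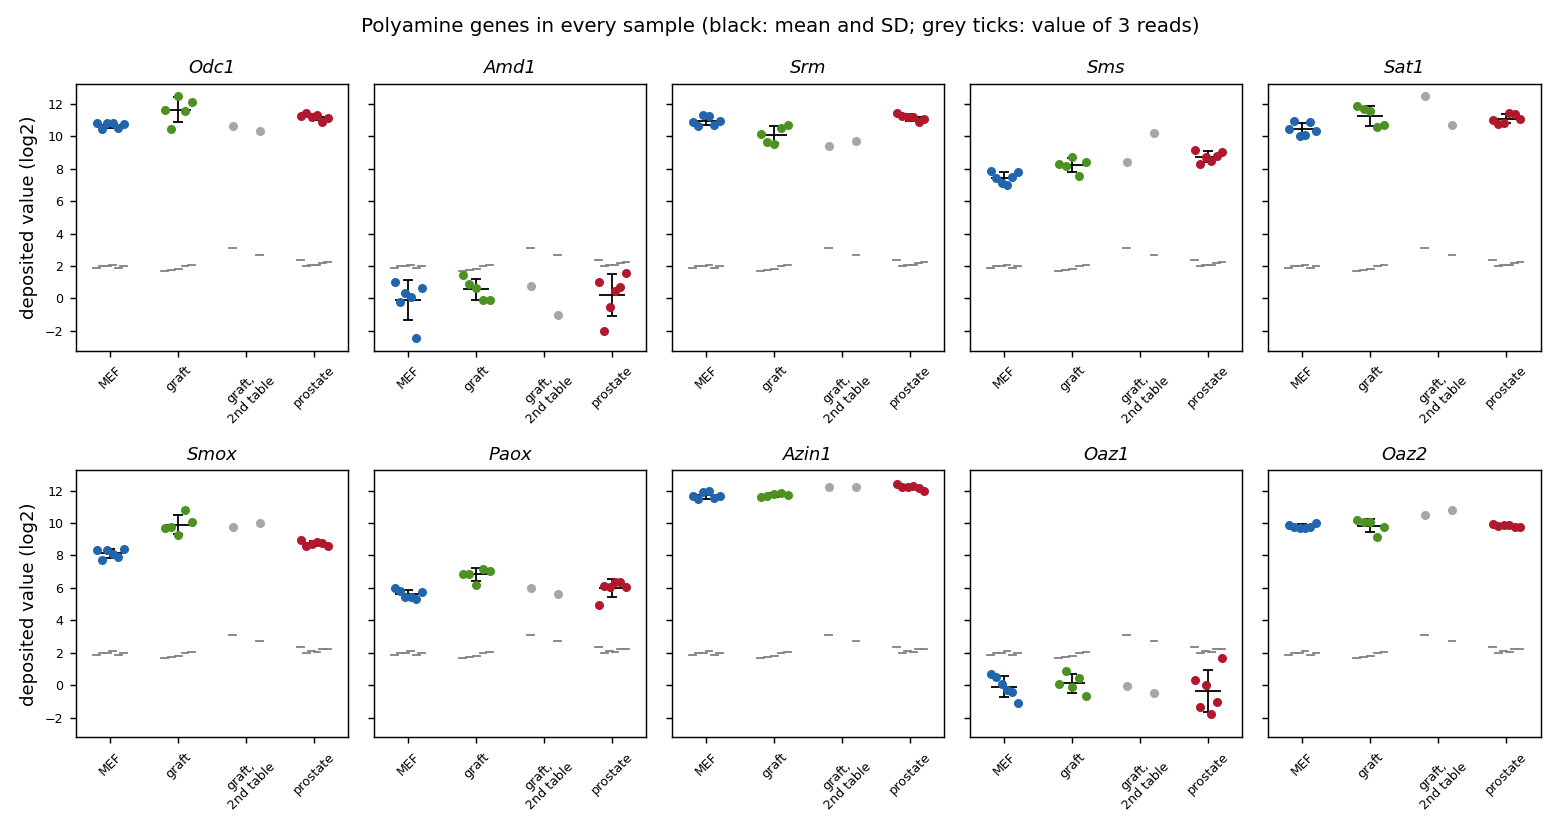
Deposited log2 values of the 10 genes in all 19 samples by group, with the mean and SD of each group of the first matrix in black and the value of 3 reads of each sample as a grey tick. Amd1 and Oaz1 lie below the value of 3 reads in every sample, Smox and Paox are highest in the grafts, and Azin1 is highest in prostate among the groups of the first matrix.

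**Figure D2:**
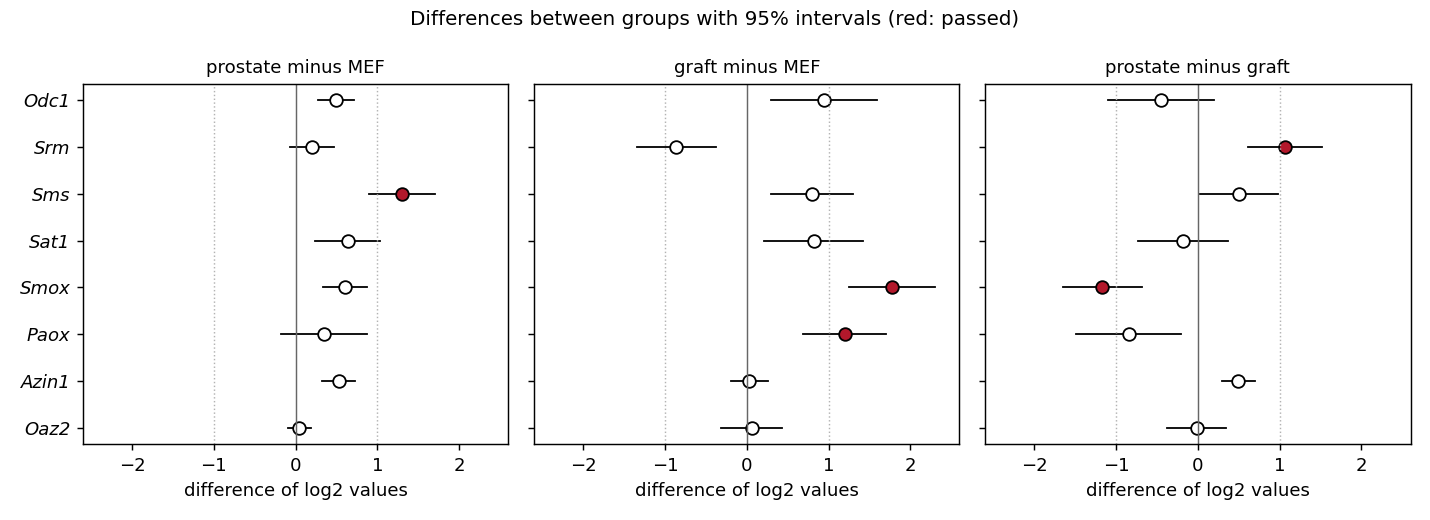
Differences of group means on the log2 scale for the 8 genes tested, with 95% intervals from limma, for prostate minus MEF, graft minus MEF and prostate minus graft. Red points passed (Sms, then Smox and Paox, then Srm and Smox), and dotted lines mark a difference of 1.

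*Odc1* encodes ornithine decarboxylase, the first and regulated enzyme of the pathway (chromosome 12, 17551679 to 17558308, plus strand, mm9). On the log2 scale it stood at 11.61, 10.44, 12.50, 11.56 and 12.14 in the grafts (ordered FS002, FS003, FS005, FS007, FS008, as for every gene below). In prostate it ran from 10.87 to 11.44 (median 11.21) and in MEFs from 10.45 to 10.83 (median 10.80). Every prostate sample lay above every MEF sample, while the grafts covered the range of both, with FS003 at the lowest value of the 17 samples and FS005 at the highest. Prostate exceeded MEFs by 0.50 (SE 0.10, limma adjusted p = 0.00048, exact permutation p = 0.0022, the smallest that 6 against 6 allows). The grafts exceeded MEFs by 0.95 (SE 0.29, adjusted p = 0.015, exact permutation p = 0.030), just short of the minimum difference. Prostate and grafts differed by -0.45 (95% interval -1.10 to 0.20, adjusted p = 0.21).

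Kidney marker sums moved with *Odc1* among the grafts. They were 86550 in FS002, 1630 in FS003, 179106 in FS005, 7462 in FS007 and 172040 in FS008, so the grafts with the 2 highest sums had the 2 highest *Odc1* values and the graft with the lowest sum had the lowest. With only FS003 and FS007 kept, the graft minus MEF difference was 0.30 (adjusted p = 0.35) and the prostate minus graft difference turned to 0.20. Without FS003 the graft minus MEF difference was 1.25 and passed. The part of kidney tissue in the *Odc1* values was not tested. In the second matrix *Odc1* was at 10.62 in FS022 and 10.35 in FS023, with kidney marker sums of 38405 and 3051.

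**Figure D3:**
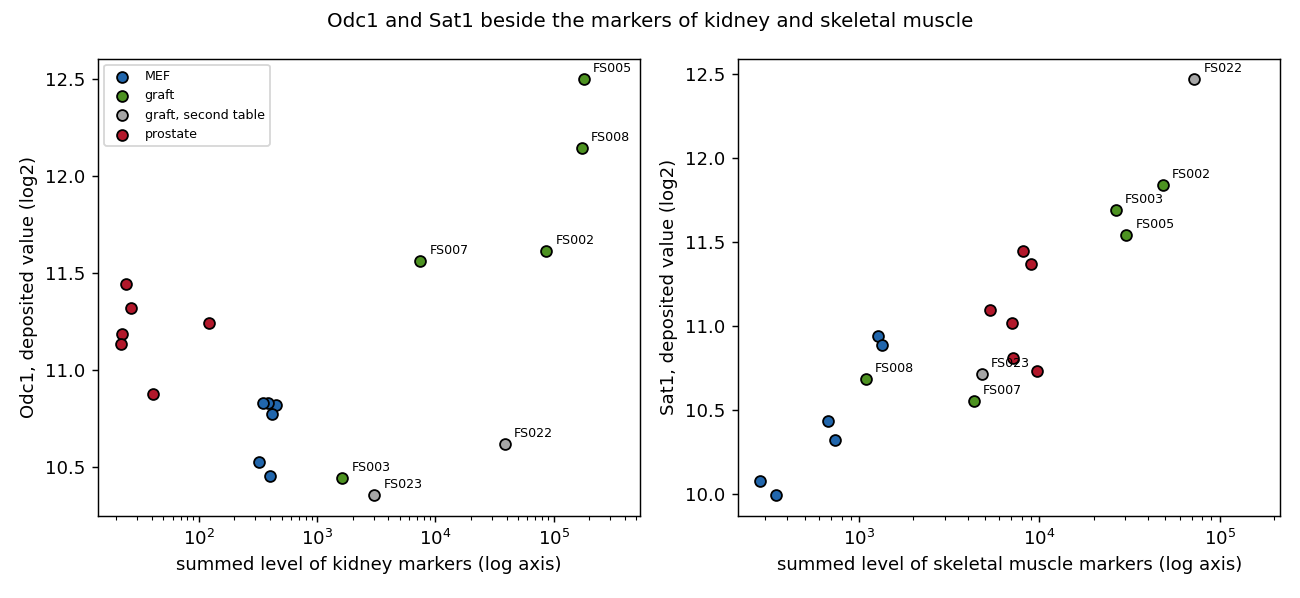
Deposited log2 value of Odc1 against the summed linear level of 10 kidney markers (left) and of Sat1 against that of 3 skeletal muscle markers (right), both sums on a log axis, with 1 point per sample and the grafts named. FS005 and FS008 have the highest kidney sums and the highest Odc1 values, and FS022 has the highest muscle sum and the highest Sat1 value, though its matrix was normalized separately.

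*Amd1* encodes S-adenosylmethionine decarboxylase, which makes the aminopropyl donor. It was listed below the value of 3 reads in all 19 samples, from -2.47 to 1.60 in the first matrix and at 0.79 and -1.05 in FS022 and FS023, where 0 reads give about -0.31 with added scatter. Its retrogene *Amd2* was also below 3 reads in every sample, from -2.16 to 1.40 in the first matrix. The *Amd1* exons (chromosome 10, 40007265 to 40021992, minus strand, mm9) matched the *Amd2* locus on the same chromosome at 99.6% identity over 3202 bases, and 89.6% of their 50-base windows had an exact copy elsewhere in mm9. The files do not say how reads matching several places were handled, so these rows give no level for *Amd1*. *Gapdh*, which every cell uses, was at only 4.68 to 6.63 in the first matrix, with 51.0% of its windows copied, while *Actb*, with 10.2%, was at 14.07 to 16.32. Other genes did not follow that order. *Ppia*, with only 18.1%, was at 4.92 to 6.47, and *Odc1*, with 54.9%, was at 10.44 to 12.50. The part of copies in these values was not tested.

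*Srm* encodes spermidine synthase (chromosome 4, 147965612 to 147969102, plus strand, mm9). It was at 10.12, 9.63, 9.53, 10.52 and 10.69 in the 5 grafts, between 10.85 and 11.42 in the prostates (median 11.19), and 10.66 to 11.31 among MEF samples (median 10.92). All 5 grafts lay below all 6 prostate samples, and only FS008 reached the MEF range. Prostate exceeded the grafts by 1.06 (SE 0.21, adjusted p = 0.0012, exact permutation p = 0.0043, the smallest that 5 against 6 allows), and the grafts were below MEFs by a difference of -0.86 (SE 0.22, adjusted p = 0.0053), under the minimum. Prostate minus MEF was 0.21 (95% interval -0.06 to 0.47, adjusted p = 0.14). FS022 and FS023 were at 9.38 and 9.70. The prostate minus graft difference was 0.99 under median centring, 0.95 without FS003, 0.92 without FS005 and 0.56 with only FS007 and FS008, each under the minimum with an adjusted p-value under 0.05.

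*Sms* encodes spermine synthase and lies on the X chromosome (153881787 to 153930219, minus strand, mm9). Its value was 8.27, 8.15, 8.75, 7.57 and 8.45 in the 5 grafts, between 8.29 and 9.17 in the prostates (median 8.76), and 6.97 to 7.85 among MEF samples (median 7.45). Prostate lay above MEFs without overlap, and 4 of the 5 grafts lay above every MEF sample. Prostate exceeded MEFs by 1.30 (SE 0.18, adjusted p = 2.2e-05, exact permutation p = 0.0022), and it passed in all 10 alternative fits (1.05 to 1.49). Those fits quantile normalized only the groups compared. With all samples of the first matrix quantile normalized together the difference was 0.97, under the minimum. The grafts exceeded MEFs by 0.80 (SE 0.23, adjusted p = 0.0099), which fell to 0.14 under quantile normalization (adjusted p = 0.61), and prostate minus graft was 0.50 (95% interval 0.02 to 0.98, adjusted p = 0.071). FS023 reached 10.22, above all other samples, and FS022 8.41. Of the *Sms* exon windows 23.9% had an exact copy elsewhere, so part of its reads could be shared with other loci.

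The promoters were searched for CACGTG, the E-box bound by MYC, which reads the same on both strands. Of the 8 genes with an entry in the RefSeq promoter table (GRCm38.p6, a window around each start site, with no entry for *Srm* and *Azin1*), only *Sms* had a match, at position -196 of 1 of its 2 windows, where 8.09% of all genes in the table had a match. It is shown as the single match among these promoters, from 157492466 to 157492495 on the X chromosome, minus strand, with the motif in capitals.
Sms: cccagcggggttCACGTGcatttaaagaaa
The match is a description of these letters. Sequence outside the promoter windows was not searched, so an E-box elsewhere in any of these genes would have been missed. *Myc* itself was at 9.89 to 10.55 in MEFs, 10.00 to 10.31 in prostate and 6.69 to 9.67 in grafts, and prostate minus MEF was -0.04 (adjusted p = 0.76). The grafts were below both other groups, with graft minus MEF at -1.34 (SE 0.45, adjusted p = 0.022) and prostate minus graft at 1.30 (SE 0.44, adjusted p = 0.025), and both passed. The lowest graft was FS008, without which the differences were -0.81 and 0.77, under the minimum, and with the close MEF pairs averaged graft minus MEF had an adjusted p of 0.11. This row is named for the mouse gene, while the iEpt cells had received human MYC by retrovirus. The study reports human MYC reads in every iEpt+NAF graft, most of them in FS008. How far this row counts those reads was not tested, so it gives no total MYC level in the grafts.

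*Sat1* encodes spermidine/spermine N1-acetyltransferase, which acetylates polyamines for oxidation or export (X chromosome, 151647675 to 151650992, minus strand, mm9). It was at 11.84, 11.69, 11.54, 10.55 and 10.68 in the 5 grafts. It ran between 10.73 and 11.45 in the prostates (median 11.06), and 9.99 to 10.94 among MEF samples (median 10.38), with overlap in every comparison. Prostate exceeded MEFs by 0.64 (SE 0.18, adjusted p = 0.0059, exact permutation p = 0.019) and the grafts exceeded MEFs by 0.82 (SE 0.27, adjusted p = 0.021, exact permutation p = 0.039), both under the minimum difference. Prostate minus graft was -0.18 (95% interval -0.73 to 0.36, adjusted p = 0.55).

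Skeletal muscle marker sums were 48210 in FS002, 26526 in FS003, 30405 in FS005, 4323 in FS007 and 1096 in FS008. The 3 grafts with the higher sums had the 3 higher *Sat1* values. In the second matrix FS022 had a sum of 72484 with *Sat1* at 12.47, and FS023 a sum of 4794 with *Sat1* at 10.71. With only FS007 and FS008 kept, graft minus MEF was 0.18 (adjusted p = 0.59) and prostate minus graft turned to 0.46 (adjusted p = 0.068). Among MEFs the close pair FS016 and FS019 had both the highest sums (1267 and 1335) and the highest *Sat1* values (10.94 and 10.89). In both of these only 1 of the 3 markers, *Acta1*, was above the value of 3 reads, so the sums there are the level of that gene. The part of muscle tissue in the *Sat1* values was not tested.

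*Smox* encodes spermine oxidase, which turns spermine back into spermidine and releases hydrogen peroxide (chromosome 2, 131317232 to 131351658, plus strand, mm9). It was at 9.70, 9.74, 9.27, 10.78 and 10.05 in the 5 grafts, between 8.56 and 8.94 in the prostates (median 8.75), and 7.75 to 8.40 among MEF samples (median 8.22). The 3 groups did not overlap, with grafts highest and MEFs lowest. The grafts exceeded MEFs by 1.78 (SE 0.24, adjusted p = 6.9e-05, exact permutation p = 0.0043). Prostate minus graft was -1.17 (SE 0.22, adjusted p = 0.00097, exact permutation p = 0.0043), and prostate exceeded MEFs by 0.61 (SE 0.12, adjusted p = 0.00049), under the minimum. The highest graft was FS007, without which prostate minus graft was -0.95. With only the 2 grafts of low kidney marker sums the graft minus MEF difference was 2.13, and with only the 2 of low muscle sums 2.28. Both pairs hold FS007, without which the difference was 1.56. The part of kidney and muscle tissue in the *Smox* values was not tested. FS022 and FS023 were at 9.78 and 9.98, and no 50-base window of the *Smox* exons had an exact copy elsewhere.

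*Paox*, which encodes the peroxisomal oxidase of acetylated polyamines (chromosome 7, 147311556 to 147320233, plus strand, mm9), had the lowest values of the 8 genes. It was at 6.85, 6.88, 6.19, 7.18 and 7.06 in the 5 grafts, between 4.92 and 6.38 in the prostates (median 6.10), and 5.34 to 6.00 among MEF samples (median 5.60). All grafts lay above all MEF samples, and prostate overlapped with both. The grafts exceeded MEFs by 1.20 (SE 0.23, adjusted p = 0.00093, exact permutation p = 0.0043), but under quantile normalization the same difference was -0.67 (adjusted p = 0.22). Prostate minus graft was -0.85 (SE 0.29, adjusted p = 0.028) and prostate minus MEF 0.35 (95% interval -0.18 to 0.88, adjusted p = 0.20), and these too changed sign under quantile normalization. FS022 and FS023 were at 5.99 and 5.61. Of the *Paox* exon windows 78.1% had an exact copy elsewhere, in a single match of 1540 bases at 99.8% identity, so reads could be shared with that copy.

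*Azin1* encodes the antizyme inhibitor (chromosome 15, 38417185 to 38449021, minus strand, mm9). It was at 11.59, 11.65, 11.82, 11.87 and 11.75 in the 5 grafts, between 11.98 and 12.43 in the prostates (median 12.24), and 11.47 to 11.95 among MEF samples (median 11.65). Prostate lay above both other groups without overlap, and the grafts lay inside the MEF range. Prostate exceeded MEFs by 0.53 (SE 0.09, adjusted p = 0.00018, exact permutation p = 0.0022) and the grafts by 0.49 (SE 0.09, adjusted p = 0.00086, exact permutation p = 0.0043), both under the minimum difference. Graft minus MEF was 0.03 (95% interval -0.19 to 0.26, adjusted p = 0.80), but 0.41 under quantile normalization (adjusted p = 0.0065). FS022 and FS023 were at 12.23 and 12.21. *Azin1* had no copied exon window, and its 5 grafts spread over only 0.28 on the log2 scale where those of *Odc1* spread over 2.06.

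*Oaz1* and *Oaz2* encode the antizymes 1 and 2. Both carry the frameshift site at which ribosomes pass the stop codon TGA, shown here because it is the sequence through which polyamines are known to act on antizyme translation. TCC, the last codon read in the first frame, and the stop codon are in capitals, *Oaz1* from 80291025 to 80291054 on chromosome 10 and *Oaz2* from 65534064 to 65534093 on chromosome 9, both on the plus strand of mm9.
Oaz1: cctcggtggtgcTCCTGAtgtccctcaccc
Oaz2: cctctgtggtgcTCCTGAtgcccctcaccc
The GENCODE M1 model of *Oaz1* leaves out 4 bases of its exon at this site, from 80291037 to 80291040, and types *Oaz2* as a processed transcript, although RefSeq lists *Oaz2-ps* as a synonym of the gene. *Oaz1* was below 3 reads in all 19 samples, from -1.77 to 1.66 in the first matrix and at -0.03 and -0.51 in FS022 and FS023, and 82.2% of its exon windows had an exact copy elsewhere. These rows give no level for the main antizyme.

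*Oaz2* was at 10.20, 10.06, 10.05, 9.16 and 9.77 in the 5 grafts, between 9.74 and 9.94 in the prostates (median 9.83), and 9.67 to 9.99 among MEF samples (median 9.73). The groups overlapped in every comparison. Prostate minus MEF was 0.04 (95% interval -0.10 to 0.18, adjusted p = 0.55), graft minus MEF 0.06 (95% interval -0.31 to 0.43, adjusted p = 0.77) and prostate minus graft -0.02 (95% interval -0.37 to 0.34, adjusted p = 0.94). FS022 and FS023 were at 10.48 and 10.78, and 35.5% of its exon windows had a copy elsewhere.

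**Figure D4:**
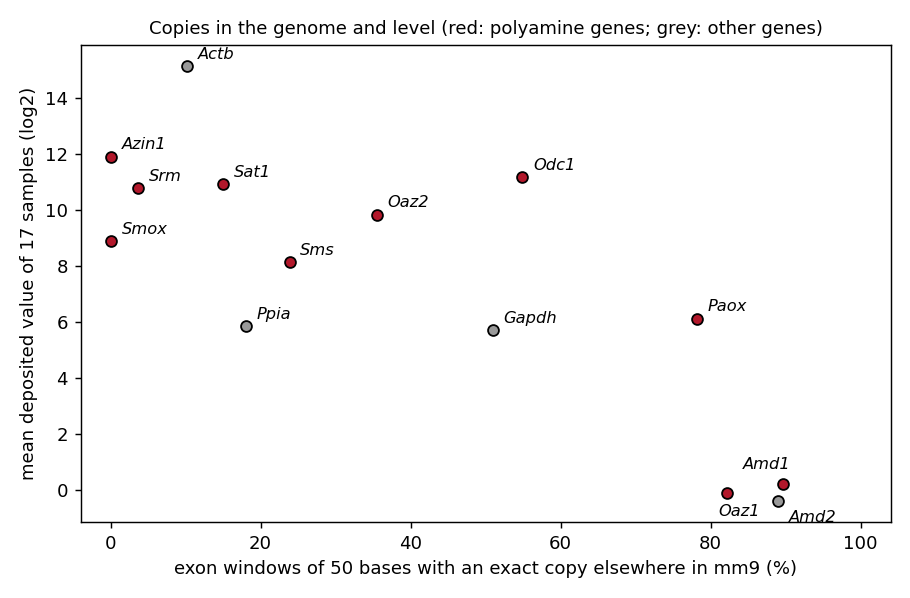
Mean deposited log2 value over the 17 samples of the first matrix against the percentage of 50-base exon windows with an exact copy elsewhere in mm9, for the 10 polyamine genes (red) and 4 other genes (grey). Amd1, Amd2 and Oaz1, at 82.2 to 89.6%, lie near 0 reads, while Odc1, at 54.9%, and Paox, at 78.1%, have values above 5.

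Across the 8 genes tested, 4 were without overlap between prostate and MEFs (*Odc1*, *Sms*, *Smox* and *Azin1*), where 66.7% of all genes were. In grafts against MEFs 2 were (*Smox* and *Paox*, against 47.3% of all genes), and in prostate against grafts 3 were (*Srm*, *Smox* and *Azin1*, against 37.2%).

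Per kilobase of annotated exon, on a log2 scale with the constant added by the authors' transformation removed, *Srm* was highest of the 8 genes in prostate (10.49 ± 0.20, SD, n = 6) and in MEFs (10.28 ± 0.26, n = 6). In the grafts *Odc1* led on average (10.30 ± 0.78, n = 5), followed by *Sat1* (9.79 ± 0.60) and *Srm* (9.42 ± 0.52), with overlapping ranges. Within each graft of the first matrix *Odc1* was above *Srm*, while the place of *Sat1* varied from graft to graft. *Sms* and *Paox* were the lowest in all 3 groups. The length joins the exons of all annotated transcripts of a gene. Exon windows with a copy elsewhere ranged from 0% in *Smox* and *Azin1* and 3.6% in *Srm* to 54.9% in *Odc1* and 78.1% in *Paox*. Ranks and gaps between genes were not corrected for copies or for the transcripts in use. *Sms*, the second synthase, was below *Srm* in every sample, by a log2 difference of 4.98 to 6.19 in MEFs, 3.94 to 4.91 in prostate and 2.69 to 4.87 in the grafts, so the gap between the synthases was wider in every MEF sample than in every prostate sample. *Smox* was below *Srm* by 3.82 to 4.40 in MEFs, 3.36 to 3.99 in prostate and 1.02 to 1.92 in the grafts, and these ranges of the grafts and of the other groups did not overlap. *Odc1* minus *Azin1* on this scale was 0.16 to 0.47 in MEFs and -0.03 to 0.50 in prostate. In the grafts of the first matrix *Odc1* exceeded *Azin1* by 0.08 to 1.97. In FS022 and FS023 *Odc1* was instead below *Azin1*, with differences of -0.32 and -0.57. There *Srm* minus *Sms* was 2.88 and 1.39, and *Srm* minus *Smox* was 0.88 and 1.01.

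The genes that supply and use the pathway were tested in the same way. Of 29 such genes in 5 lists, 25 were tested in prostate against MEFs, where 7 were higher and 4 lower in prostate. In grafts against MEFs 27 were tested, with 7 higher and 4 lower in grafts, and in prostate against grafts 28 were tested, with 4 higher and 5 lower in prostate. The median differences were 0.24, 0.05 and 0.43. In the same order 14, 16 and 19 of the genes tested did not pass. The share that passed was near that over all genes tested in each comparison (48.3%, 41.9% and 33.3%), and only slightly below it.

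Arginase supplies the ornithine. Of 5 ornithine supply genes, 2 were higher and 1 lower in prostate than in MEFs, 2 higher and 1 lower in grafts than in MEFs, and 2 higher and 2 lower in prostate than in grafts. *Arg2*, the mitochondrial arginase, was at 9.85 to 10.32 in prostate, at 7.51, 8.60, 8.06, 7.29 and 6.79 in the 5 grafts, and at 0.71 to 3.03 in MEFs, where 2 of 6 samples were under the value of 3 reads. With those raised to the value of 3 reads, prostate exceeded MEFs by 7.81 and the grafts exceeded MEFs by 5.31, and prostate exceeded the grafts by 2.50 (SE 0.27, adjusted p = 2.0e-05). *Arg1*, the cytosolic arginase, had the opposite order between the tissues, at 5.74 to 7.20 in prostate and 11.71, 10.87, 9.77, 9.49 and 7.40 in the grafts, a prostate minus graft difference of -3.63 (SE 0.63, adjusted p = 0.00055). It was at 2.66 to 5.43 in MEFs, and prostate minus MEF was 1.86 (adjusted p = 0.0028), a call lost under quantile normalization (adjusted p = 0.050).

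The cationic amino acid transporters that bring in arginine also differed. *Slc7a1* was at 11.64 to 12.06 in prostate, 11.13 to 11.83 in MEFs and 9.19 to 10.75 in grafts, so that every graft lay below every other sample, and prostate minus graft was 1.69 (SE 0.25, adjusted p = 0.00019). *Slc7a2* was at 6.28 to 7.11 in prostate, 9.54 to 10.62 in MEFs and 8.29 to 12.72 in grafts, and prostate minus graft was -3.65 (SE 0.74, adjusted p = 0.0015). Its 2 highest grafts were FS007 at 12.40 and FS008 at 12.72.

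Methionine is the source of the aminopropyl groups. Of 9 genes of the methionine cycle and salvage list, 8 were tested in prostate against MEFs, with 2 higher and 1 lower in prostate. In the other comparisons all 9 were tested, with 1 higher and 1 lower in grafts than in MEFs and 2 higher in prostate than in grafts. *Mat2a*, the S-adenosylmethionine synthetase of most tissues outside the liver, was at 14.57 to 15.68 in prostate (median 14.98), at 11.55, 11.37, 12.14, 12.38 and 12.29 in the 5 grafts, and at 11.61 to 12.03 in MEFs. Prostate stood apart from both other groups, which overlapped. Prostate exceeded MEFs by 3.27 (SE 0.17, adjusted p = 1.2e-09), a 9.65-fold difference, and the grafts by 3.11 (SE 0.24, adjusted p = 2.2e-06), while graft minus MEF was 0.16 (adjusted p = 0.48). FS022 was at 13.27 and FS023 at 11.66.

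The salvage genes recycle methylthioadenosine, the by-product of both aminopropyl transfers. *Mtap*, the phosphorylase that opens this salvage, was at 9.32 to 9.67 in prostate and 9.37 to 10.17 in grafts against 11.38 to 11.65 in MEFs, and prostate minus MEF was -1.999 (SE 0.07, adjusted p = 5.1e-11). *Adi1*, an enzyme near the end of the salvage, ran the other way, at 10.52 to 12.01 in prostate and 8.43 to 8.84 in MEFs, and prostate exceeded MEFs by 2.78 (SE 0.20, adjusted p = 2.7e-08) and the grafts by 1.24 (adjusted p = 0.0070). *Mat1a*, the liver form, was at 3.18 to 5.03 in prostate and above 3 reads in 1 of 6 MEF samples and 3 of 5 grafts.

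Of the 5 paralogs, 3 were tested in prostate against MEFs, with 1 higher and 1 lower in prostate. In grafts against MEFs 3 were tested, with 1 higher and 1 lower in grafts, and in prostate against grafts 4 were tested, with 1 lower in prostate. *Azin2*, a second antizyme inhibitor, ran against *Azin1*, at 5.54 to 6.12 in prostate and 8.46 to 9.69 in MEFs, a difference of -3.26 (SE 0.22, adjusted p = 1.6e-08). The grafts were at 7.88, 7.78, 7.15, 5.53 and 5.62, and graft minus MEF was -2.33 (adjusted p = 0.0013). *Oaz3*, the antizyme of the testis, was at 3.72 to 4.63 in all prostate samples and under 3 reads in 4 of 6 MEF samples, and with those raised to 3 reads prostate exceeded MEFs by 2.10. *Agmat*, named agmatinase, was above 3 reads in all 5 grafts (2.38 to 6.61), in 1 prostate sample and in no MEF sample. With each MEF sample set at 3 reads, the mean of the grafts exceeded that of MEFs by at least 2.67 on the log2 scale. Graft FS007, at 2.38, was close to its own value of 3 reads, 1.98. *Sat2*, a relative of *Sat1*, was at 6.39 to 7.04 in prostate, 5.62 to 6.57 in MEFs and 4.01 to 6.60 in grafts, and did not pass in any comparison, although under quantile normalization graft minus MEF was -2.14 and prostate minus graft 1.92, and both passed.

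Spermidine also provides the butylamine of hypusine, a modified residue of the translation factor eIF5A. Of the 4 hypusination genes 1 passed in prostate against MEFs and 1 in grafts against MEFs, and it was *Eif5a2* in both. *Eif5a2* was at 5.61 to 7.19 in prostate, 6.06 to 7.83 in grafts and 9.05 to 9.22 in MEFs, and prostate minus MEF was -2.76 (SE 0.20, adjusted p = 3.5e-08) and graft minus MEF -1.81 (SE 0.27, adjusted p = 0.00014). *Dohh*, the hydroxylase of the second step, differed by 0.69 between prostate and MEFs (SE 0.06, adjusted p = 3.1e-07), *Dhps*, the synthase of the first, by 0.24 (adjusted p = 0.0055) and *Eif5a* by -0.09 (adjusted p = 0.12). None of the 4 passed in prostate against grafts, where *Dohh* and *Eif5a2* had an adjusted p-value under 0.05 (limma).

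Of 6 transport genes, 5 were tested in prostate against MEFs, with 2 higher in prostate. All 6 were tested in the other comparisons, with 3 higher in grafts than in MEFs and 2 lower in prostate than in grafts. *Slc22a2*, an organic cation transporter of kidney tubules, was under 3 reads in all prostate and MEF samples. It was at 9.44, 3.45, 10.69, 6.25 and 10.73 in the 5 grafts. With those prostate and MEF samples set at 3 reads, the graft mean was at least 5.96 above the prostate mean. Against the MEF mean it was at least 6.13 above, both on the log2 scale. Single grafts ranged widely, and FS003, at 3.45, was far closer to the raised prostate mean of 2.15. The order of the grafts in *Slc22a2* was close to that of the kidney marker sums, with the 3 grafts of the highest sums also the 3 highest.

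The other transporters varied less among the grafts. *Slc12a8*, which has been described as a polyamine and amino acid carrier, was at 6.46 to 6.78 in prostate, 1.88 to 3.89 in MEFs and 6.98 to 10.20 in grafts, with no overlap between any groups, and prostate minus graft was -2.25 (SE 0.47, adjusted p = 0.0018). *Atp13a2*, the lysosomal polyamine exporter, was at 10.86 to 11.41 in prostate, 10.47 to 10.70 in grafts and 8.36 to 9.88 in MEFs, and prostate exceeded MEFs by 1.79 (SE 0.25, adjusted p = 1.7e-05) and the grafts by 0.44 (adjusted p = 0.0053). *Atp13a3*, a relative of *Atp13a2*, was at 11.62 to 12.11 in prostate, 11.43 to 12.32 in grafts and 12.33 to 12.55 in MEFs, above every other sample, and prostate minus MEF was -0.54 (SE 0.08, adjusted p = 2.5e-05), under the minimum difference.

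**Figure D5:**
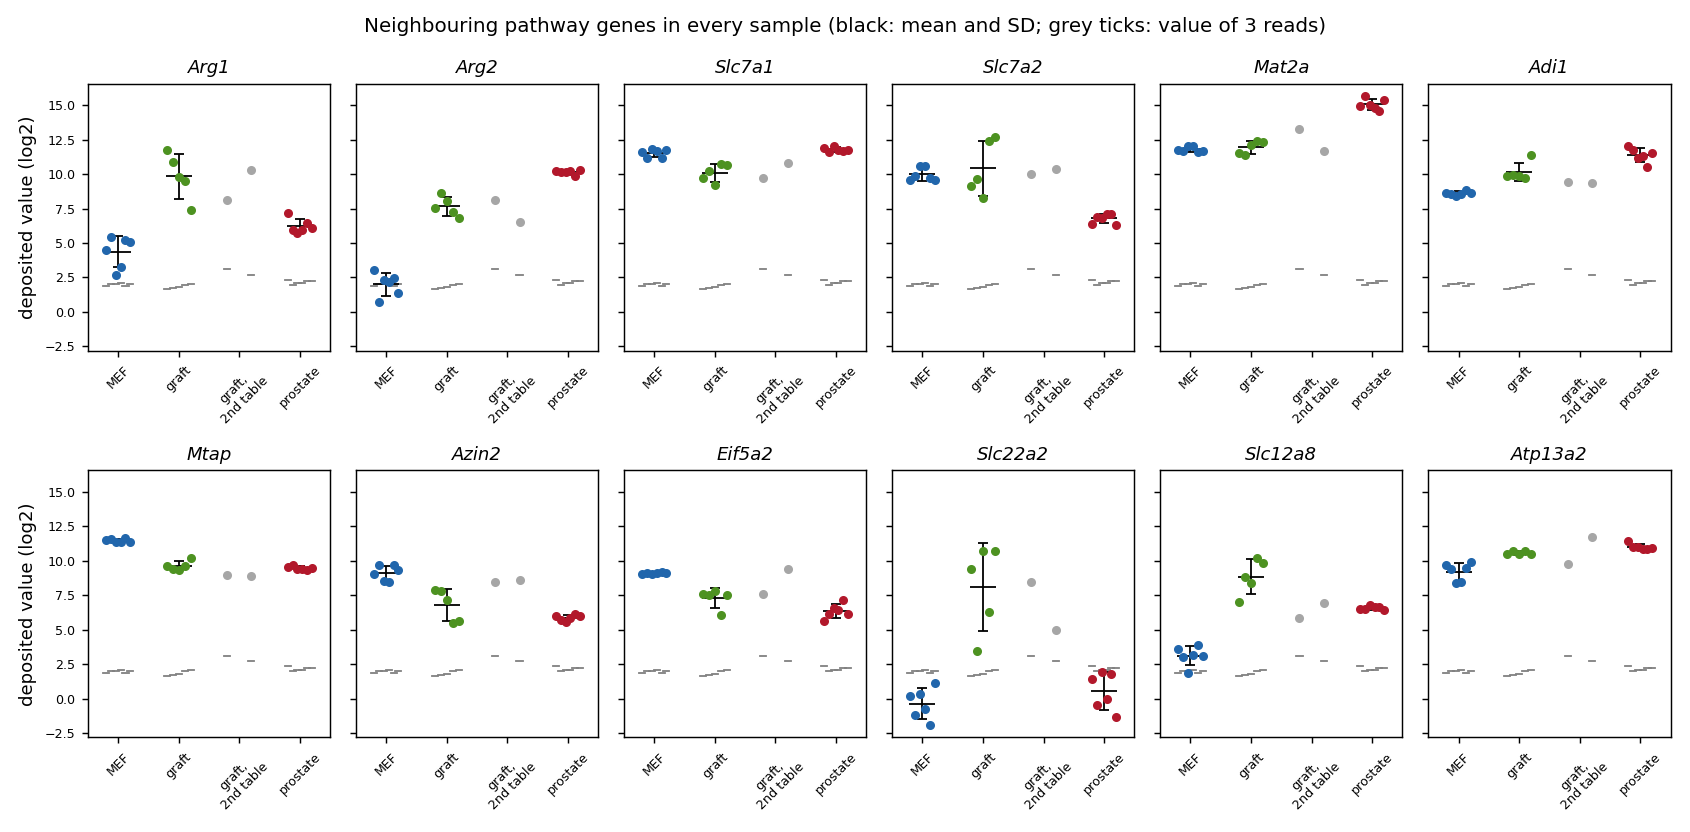
Deposited log2 values of 12 genes that supply or use the polyamine pathway, by group as in the plot of the 10 genes, with mean and SD in black and the value of 3 reads as grey ticks. Mat2a at 14.57 to 15.68 and Arg2 at 9.85 to 10.32 are highest in prostate, Arg1 and Slc12a8 are highest in the grafts, and Mtap, Azin2 and Eif5a2 are highest in MEFs among the groups of the first matrix.

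The genes whose values followed *Odc1* and *Sat1* most closely were found by Pearson correlation of the log2 values over the 17 samples of the first matrix, among the 14203 genes kept in all 3 comparisons. These correlations contain the differences between groups and the admixture of the grafts, and are descriptions. For *Odc1* the 5 closest included *4833439L19Rik* (r = 0.901), *Pdzk1* (0.898), *Bnip3* (0.878) and *Acy1* (0.876). *Pdzk1*, a scaffold protein of the kidney brush border, was at 8.37 to 12.73 in the grafts, 7.88 to 9.88 in prostate and 6.85 to 7.08 in MEFs. For *Sat1* they were *1700009P17Rik* (0.901), *Acta1* (0.889), *Tmem38a* (0.888), *Car8* (0.887) and *Disp2* (0.875). *Acta1*, the skeletal muscle actin and itself among the muscle markers, was at 10.09 to 15.18 in the grafts, 12.33 to 13.20 in prostate and 8.15 to 10.38 in MEFs.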

How the data were processed

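RNA-seq values of 17 samples in a first matrix and 2 in a second were used. Per the labels, bcl2fastq 1.8.4, TopHat, Cufflinks and DESeq were used by the authors with the mm9 build, and the deposited unit is log2 after DESeq normalization. How reads matching several places were treated, and whether counting used the strand, is not given in the sources used here. High values (above 11.5) came back as whole reads within 0.05 once a sample-specific unit and a common offset were removed, which gave the depth. Below that the values are scattered, and reads could not be recovered for most genes. There are 23259 names in both matrices, and 25 names in 1 of them read as dates.

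The 10 genes, the pathway lists and the tests were chosen with earlier results of these data known. Each comparison was fitted on its own 2 groups in limma 3.58.1 (R 4.3.3, trended eBayes), keeping genes whose mean linear value was at least 10. Passing required a p-value under 0.05 after Benjamini-Hochberg adjustment, with a log2 difference of 1 or more in size. Exact two-sided permutation tests over samples (scipy 1.17.1) are unadjusted, over 24 tests. They took the MEF samples as separate units and were not repeated with the close pairs averaged. On simulated data with 200 genes changed by 2 on the log2 scale, limma recovered 171 of 200 in prostate against MEFs, 132 in grafts against MEFs and 136 in prostate against grafts, with 1, 7 and 6 false calls. The simulated noise was drawn independently for each sample, with no close pairs and far fewer changed genes than passed here. These counts therefore do not give error rates for the deposited data. Named pathway genes are, per list, up to 4 with the largest absolute difference in the comparisons with prostate, plus the 5 genes most correlated with *Odc1* and with *Sat1*. *Gapdh*, *Ppia*, *Actb*, *Amd2* and *Myc* were added to read the values. A gene of the transport list, a prostate marker, a gene correlated with *Odc1* and the names of some alleles and factors are not reported here. Copies of exons were found with BLAST 2.17.0 (at least 95% identity over 50 bases) in mm9 with GENCODE M1 models. Python 3.11.15, numpy 2.4.6, pandas 2.3.3 and matplotlib 3.10.9 were used. Samples FS022 and FS023 entered no test. Alternatives changed the pseudocount, filter, scaling, samples in the fit, sample weights and minimum difference and left out libraries, and those that averaged the close MEF pairs or kept only certain grafts or MEF samples were chosen after seeing the data.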

Additional observations from a re-analysis of the deposited data

Results flagged for a closer look

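Of 84 sets of values (28 genes in 3 groups), 4 held a sample far from the others of its group by Dixon's criterion at the 95% level, where chance gives about 4.2. For the 10 genes there was 1 such set, *Paox* in prostate, with FS009 at 4.92 and the other 5 samples at 6.04 to 6.38. *Adi1* was at 11.36 in graft FS008 against 9.75 to 9.93 in the other grafts. *Eif5a2* was at 6.06 in graft FS007 against 7.49 to 7.83. *Atp13a2* was at 11.41 in prostate sample FS009 against 10.86 to 10.99.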

How the results depend on the processing

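The samples share no animal, donor or batch across groups in the labels. No paired analysis was possible because the replicate numbers of the groups are only the order of their samples. Of the 8 genes tested, the count passing was 1 in prostate against MEFs under every alternative except that without the minimum difference, where it was 5, with 11772 of all genes. In grafts against MEFs it was 2 or 3, and 6 without the minimum (10573 of all genes), and with only MEF samples FS019 and FS020 kept 4493 of all genes passed. In prostate against grafts it was 1 under median centring and sample weights and 4 without the minimum (9093 of all genes), and 1 to 2 when 1 graft was left out. *Srm* passed there in none of the fits with median centring, without FS003, without FS005 or with only FS007 and FS008, and *Smox* not with sample weights or without FS007. Of the 24 exact tests, 15 had p under 0.05 as deposited, 16 after quantile normalization and 15 after median centring.

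Signs changed as follows, none with a value that had passed except *Paox* in grafts against MEFs. Under quantile normalization, *Paox* was -0.39 in prostate minus MEF, -0.67 in graft minus MEF and 0.27 in prostate minus graft, and *Eif5a* 0.16 in prostate minus MEF. With sample weights, prostate minus MEF was 0.0080 for *Myc*, and graft minus MEF was 0.20 for *Sat2* and -0.060 for *Mat2a*. With only FS003 and FS007, *Odc1* was 0.20 in prostate minus graft, and *Oaz2* -0.18 in graft minus MEF and 0.23 in prostate minus graft. With only FS007 and FS008, *Sat1* was 0.46 in prostate minus graft, and *Oaz2* -0.33 in graft minus MEF and 0.37 in prostate minus graft. Without MEF samples FS015 to FS018, *Oaz2* was -0.034 in prostate minus MEF and -0.018 in graft minus MEF, and *Myc* 0.062 in prostate minus MEF. With each graft left out in turn, graft minus MEF ran from -0.0018 to 0.068 for *Azin1*, from -0.030 to 0.23 for *Oaz2* and from -0.42 to 0.23 for *Sat2*, and prostate minus graft from -0.19 to 0.073 for *Oaz2*. The causes were not tested. Of the other values of named genes under alternatives, 702 kept their direction and their side of the threshold.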
